A study of Mus musculus with 47 samples.

Results

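The transition from mid pregnancy to the onset of lactation in mammary luminal cells was examined in 6 RNA-seq libraries of 46 with values in the series. They were all luminal libraries of the 2 time points, 3 from pregnancy day 14.5 (P14.5, replicates 2, 3 and 5, the last titled 5 but coded 6 in the deposited columns) and 3 from lactation day 3 (L3, replicates 4, 5 and 6). The mice were FVB/N females mated at 8 weeks of age, with no transgene or treatment named, and the glands of several mice were digested and sorted together. Luminal cells were gated as lineage-negative CD24+ CD29lo and basal cells, which include the contractile myoepithelial cells, as lineage-negative CD24+ CD29hi. Basal libraries, 3 at L3 and 2 at P14.5, served for comparison. The basal sample of P14.5 replicate 2 was set aside by the authors and was not used here. A replicate number marks a sort of its own, so the spread between replicates is that between pools of mice.

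Luminal cells line the ducts and alveoli of the gland and are the cells that make milk. During pregnancy, progesterone and prolactin drive the alveolar lineage to multiply and to switch on part of the milk protein genes, and full secretion starts around birth, when progesterone falls and prolactin, insulin and glucocorticoid signals act together. Secreting cells take up glucose, amino acids, fatty acids and calcium from the blood and export casein micelles, lactose and lipid droplets wrapped in plasma membrane. Before sorting, the tissue was digested in a medium with insulin, epidermal growth factor and hydrocortisone and kept cold overnight. A sorted luminal pool holds alveolar, ductal and hormone-sensing cells, and in such bulk samples fewer cells of a type and less RNA per cell cannot be told apart.

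Promoter sequences of 4 members are shown because they carry letters that the regulators of milk protein, sterol and replication genes are known to bind. They are the 250 bases before the gene start in RefSeq (GRCm38.p6), 5′ to 3′ on the gene's strand. Capitals in *Csn1s1* (plus strand, chr5:87665958-87666207) and *Csn2* (minus strand, chr5:87699426-87699675), both caseins, mark the STAT5-type letters TTCNNNGAA, which start 100 and 93 bases before the start. Capitals in *Idi1* (plus strand, chr13:8885356-8885605), an enzyme of cholesterol synthesis, mark CCAAT read on the opposite strand. Capitals in *Mcm6* (minus strand, chr1:128359706-128359955), a subunit of the replication helicase, mark the E2F-type letters TTTNNCGC, found 3 times on either strand with 1 overlap.
Csn1s1: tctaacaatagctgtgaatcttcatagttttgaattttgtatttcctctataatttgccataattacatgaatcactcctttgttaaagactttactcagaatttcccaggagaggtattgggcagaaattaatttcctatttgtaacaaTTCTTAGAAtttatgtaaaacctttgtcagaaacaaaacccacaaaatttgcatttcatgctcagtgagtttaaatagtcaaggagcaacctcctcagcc
Csn2: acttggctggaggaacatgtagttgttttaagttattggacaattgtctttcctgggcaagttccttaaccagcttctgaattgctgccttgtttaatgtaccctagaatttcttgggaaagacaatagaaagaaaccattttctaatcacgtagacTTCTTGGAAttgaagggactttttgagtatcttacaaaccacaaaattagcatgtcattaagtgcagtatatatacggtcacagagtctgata
Idi1: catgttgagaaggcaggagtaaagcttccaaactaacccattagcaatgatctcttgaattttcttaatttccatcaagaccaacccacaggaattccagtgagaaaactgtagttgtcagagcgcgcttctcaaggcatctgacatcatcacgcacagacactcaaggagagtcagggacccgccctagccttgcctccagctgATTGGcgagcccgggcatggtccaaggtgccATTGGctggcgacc
Mcm6: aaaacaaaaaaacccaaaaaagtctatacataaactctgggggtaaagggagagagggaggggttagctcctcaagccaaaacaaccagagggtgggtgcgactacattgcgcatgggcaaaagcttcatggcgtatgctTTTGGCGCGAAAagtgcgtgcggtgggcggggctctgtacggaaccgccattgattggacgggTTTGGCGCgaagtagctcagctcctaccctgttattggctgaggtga

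Among the genes of the table, 11722 had a promoter in the same RefSeq set, and motifs were searched on both strands. The STAT5-type letters stood in 3 of 9 milk protein genes with a promoter (33.3%, *Csn1s1*, *Csn2* and *Glycam1*) and in 7.23% of all genes. CCAAT stood in 14 of 15 cholesterol synthesis genes (93.3%) and in 26 of 35 cell division genes (74.3%), against 39.5% of all genes. The E2F-type letters stood in 6 of 35 cell division genes (17.1%) and in 7.63% of all genes, and the letters TTTGAA or TTCGAA in 12 of 35 (34.3%) and 15.0%. The latter letters and CCAAT each stood in 4 of 9 milk protein genes as well (44.4%). The sterol element TCACNCCAC was found in none of the 15 cholesterol synthesis genes, in 1 of 9 milk protein genes (11.1%, *Spp1*) and in 1.27% of all genes. These shares describe letters in a window and say nothing about binding.

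The P14.5 luminal libraries held 14937202, 9519867 and 11889301 reads on genes, and the L3 luminal libraries 12413569, 11621415 and 8295520. Throughout, values are listed in the order of replicates 2, 3 and 5 for P14.5 and 4, 5 and 6 for L3. Levels are the authors' CPM, read counts scaled to an effective library size, so the columns sum to different totals (1154133, 935710 and 1003082 CPM at P14.5, and 2239050, 1368134 and 2909036 CPM at L3). A level of 3 reads corresponded to 0.232 to 0.295 CPM at P14.5 and to 0.541, 0.353 and 1.05 CPM at L3, which covers counting error only. The P14.5 replicates were more alike (R2 across genes 0.944 to 0.968) than those of L3 (0.867 to 0.899), with L3 replicate 6 the least like the others. All L3 libraries were amplified in batch 5 and run in lane 7 and all P14.5 libraries in batch 6 and lane 6, so batch, lane and time point cannot be told apart.

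The gate was checked against marker genes. None of the 10 luminal epithelial markers was at 0 in any luminal library. Their summed level was 11589, 7033 and 8647 CPM at P14.5 and 6355, 6393 and 4954 CPM at L3, and none was called. Their median log2 change was -0.76 and 9 of 10 were negative, 1 fell with milk protein genes left out of the scaling and 6 fell relative to all reads of the table. The 12 basal markers summed to 929, 1081 and 855 CPM at P14.5 and to 1460, 1954 and 837 CPM at L3, and none of them was at 0. In the basal libraries they summed to 17379 to 83042 CPM, with *Acta2* or *Myh11* the most abundant, whereas in the luminal libraries it was the integrin *Itga6* in 5 of 6 libraries. Of these 12 genes, 3 rose in the luminal libraries (6 after median ratio scaling), 9 were higher in each L3 luminal library than in each P14.5 library, and the median log2 change was 1.96. Over all genes tested, 3.19% rose, 3.75% did so after median ratio scaling and 13.1% were higher in each L3 library. The basal keratin *Krt5* measured 8.58, 9.24 and 4.47 CPM at P14.5 and 198, 507 and 50.1 CPM at L3 (log2 change 4.41 ± 0.79, adjusted p = 0.0002), the basal transcription factor *Trp63* measured 2.94, 8.35 and 3.8 CPM at P14.5 and 61.9, 184 and 21.4 CPM at L3 (log2 change 3.51 ± 0.68, adjusted p = 0.00046), and smooth muscle myosin *Myh11* measured 58.0, 8.85 and 10.8 CPM at P14.5 and 87.5, 90.1 and 137 CPM at L3 (log2 change 2.45 ± 0.65, adjusted p = 0.0083), a call lost in edgeR and with milk protein genes left out of the scaling. *Krt14*, which pairs with *Krt5*, measured 138, 102 and 109.8 CPM at P14.5 and 138, 369 and 60.0 CPM at L3 (log2 change 0.33 ± 0.64, adjusted p = 0.82). The part of basal-type cells in the results below was not tested. Of the markers of fibroblasts (10 measured), endothelium (10), pericytes (8), myeloid cells (12), lymphocytes (6 of 12 listed), red cells (4 of 8) and adipocytes (6 of 11), none was called in limma. In edgeR and after median ratio scaling 1 pericyte marker rose, the proteoglycan *Cspg4*, at 2.09, 0.590 and 0.506 CPM at P14.5 and 8.30, 11.2 and 2.81 CPM at L3 (log2 change 1.96 ± 0.54, adjusted p = 0.012). The fibroblast sum was 159, 109 and 85.5 CPM at P14.5 and 92.0, 131 and 351 CPM at L3. The lymphocyte sum was at most 7.57 CPM except in L3 replicate 5 (49.0 CPM, led by *Cd3e*), where the erythroid sum (50.2 CPM) was highest too. The endothelial list had a median log2 change of 1.37 and summed to 375, 39.7 and 97.2 CPM at P14.5 and 208, 695 and 238 CPM at L3, while the myeloid sum was almost all *Cd14*, with the leukocyte marker *Ptprc* at 5.49, 1.08 and 3.63 CPM at P14.5 and 0.361, 2.94 and 5.96 CPM at L3.

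Of 17078 genes tested, 1053 (6.17%) were called between L3 and P14.5 in luminal cells, that is, changed 2-fold or more with an FDR (Benjamini-Hochberg adjusted p) under 0.01 in limma on log2(CPM + 1). Of these, 545 (3.19%) were higher and 508 (2.97%) lower at L3, and counts of called list members below are to be read beside these shares. Changes below are L3 minus P14.5 on that log2 scale, which understates genes with few reads, with their standard error (± SE) and the FDR as adjusted p. Without regard to a test, the 3 L3 libraries all lay above the 3 P14.5 libraries for 2235 genes (13.1%) and all below for 2887 (16.9%). The split of the calls moved with the scaling and with the tool used. It was 641 higher and 372 lower (3.75% and 2.18% of genes tested) after median ratio scaling, 533 and 399 (3.12% and 2.34%) in edgeR, 383 and 1007 (2.24% and 5.90%) with milk protein genes left out and libraries rescaled, and 141 and 4285 (0.826% and 25.1%) relative to all reads of the table, where milk transcripts take reads from all others and the median gene shifts by -0.61 against -0.021 in the values as deposited. The spread came from all 46 libraries. With only the 6 luminal libraries in the fit, 4 genes were called higher and 2 lower (4175 genes at an unadjusted p under 0.05). Leaving out P14.5 replicate 5 gave 295 and 272, leaving out P14.5 replicate 3 gave 316 and 341, leaving out L3 replicate 4 gave 362 and 332, and leaving out L3 replicate 6 gave 518 and 376.

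Milk protein transcripts took up a large part of every L3 luminal library. The 11 measured genes of this list held 22.2%, 18.8% and 17.2% of reads at P14.5 and 53.4%, 30.7% and 66.5% at L3. The groups did not overlap, and the mean was 19.4% ± 2.54 at P14.5 and 50.2% ± 18.1 at L3 (SD, n = 3 each), a difference of 30.8 percentage points (exact permutation test, two-sided, p = 0.1, the smallest that 3 against 3 allows). The 5 caseins and *Wap* alone accounted for 17.4% ± 2.21 and 44.0% ± 15.7. The L3 replicates differed among themselves by more than the P14.5 replicates did, with replicate 5 lowest and replicate 6 highest.

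**Figure D1:**
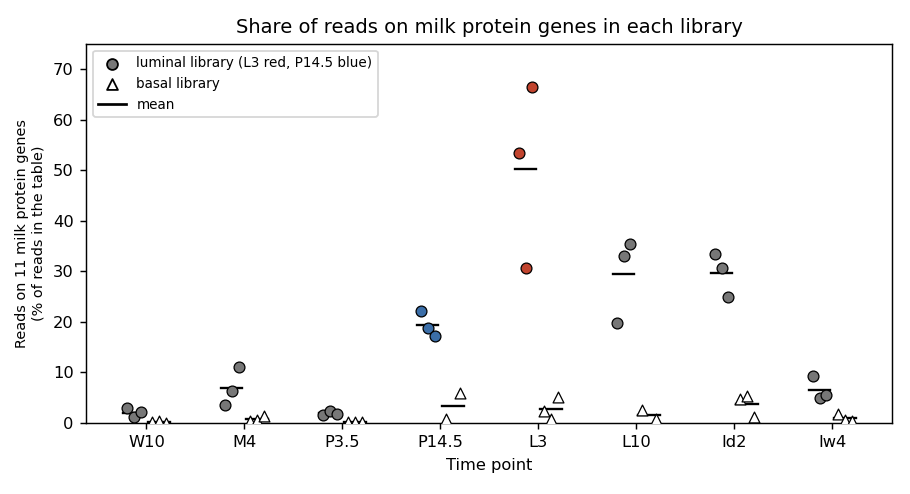
Percentage of the reads in the table that fell on 11 milk protein genes (y axis) in each library at 8 time points (x axis). Circles are luminal libraries (L3 red, P14.5 blue), triangles basal libraries, and bars means. The 3 L3 luminal libraries lie at 30.7%, 53.4% and 66.5%, and the basal libraries of L3 at 0.848% to 5.19%.

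All 11 milk protein genes were higher in each L3 luminal library than in each P14.5 library, with a median log2 change of 2.44 (all genes tested -0.021), and 4 of the 11 (*Csn1s2b*, *Wap*, *Lalba* and *Cel*) passed the test. Beta-casein *Csn2*, the gene with most reads in all 6 libraries, measured 103552, 70309 and 68910.4 CPM at P14.5 and 512152, 188022 and 688943 CPM at L3. Its change missed the threshold (log2 change 2.35 ± 0.84, adjusted p = 0.055). The same held for alpha-casein *Csn1s1*, at 44235, 31835 and 30666 CPM at P14.5 and 164405, 59357 and 371139 CPM at L3 (log2 change 2.13 ± 0.77, adjusted p = 0.057), and kappa-casein *Csn3*, which holds the micelle together, at 17678, 9882 and 11153 CPM at P14.5 and 70478, 21938 and 112424 CPM at L3 (log2 change 2.16 ± 0.77, adjusted p = 0.054). In all 3 genes the groups did not overlap, and DESeq2 called all 3 higher. At P14.5, *Csn2* already held 8.97%, 7.51% and 6.87% of the reads.

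The 4 milk protein genes that passed the test rose more steeply. The casein *Csn1s2b* measured 40.9, 8.55 and 6.33 CPM at P14.5 and 7903, 2801 and 51367 CPM at L3, the largest rise among the genes named by rule (log2 change 9.51 ± 0.88, adjusted p = 4.4e-09). Its close relative *Csn1s2a* was high at both time points (log2 change 2.00), and reads may be split between them. Whey acidic protein *Wap* measured 799, 432 and 365 CPM at P14.5 and 41167, 10495 and 109769 CPM at L3 (log2 change 6.17 ± 1.04, adjusted p = 9.1e-05). Alpha-lactalbumin *Lalba*, the whey protein that turns galactosyltransferase into lactose synthase, measured 17.2, 13.5 and 9.45 CPM at P14.5 and 479, 319 and 259.9 CPM at L3 (log2 change 4.61 ± 0.85, adjusted p = 0.00025). The milk bile-salt lipase *Cel* measured 362, 191 and 180.5 CPM at P14.5 and 3403, 1181 and 4714 CPM at L3 (log2 change 3.52 ± 0.72, adjusted p = 0.00092). In none of these 4 genes did the groups overlap, and each call held whichever luminal library was left out. Within L3, *Csn1s2b*, *Wap* and *Csn2* were lowest in replicate 5 and highest in replicate 6, while *Lalba* was lowest in replicate 6.

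In the machinery that wraps lipid droplets in membrane, about as many genes passed the test as did not. Of 9 measured genes of the milk fat globule membrane, 4 rose, none fell and the median log2 change was 1.88 (relative to all reads of the table, 2 rose, 1 fell and the median was 0.87). Xanthine dehydrogenase *Xdh*, which binds butyrophilin at the droplet surface, measured 571, 397 and 445 CPM at P14.5 and 2346, 1079 and 1999.9 CPM at L3 (log2 change 1.88 ± 0.42, adjusted p = 0.0019). *Cidea*, a lipid droplet protein needed for milk lipid secretion, measured 12.8, 8.85 and 12.8 CPM at P14.5 and 367, 129 and 629 CPM at L3 (log2 change 4.65 ± 0.68, adjusted p = 1.3e-05). The globule glycoprotein *Mfge8* measured 2497, 1543 and 1787 CPM at P14.5 and 20639, 13869 and 9993 CPM at L3 (log2 change 2.9 ± 0.43, adjusted p = 1.7e-05) and mucin *Muc1* 285, 189.6 and 169 CPM at P14.5 and 1549, 700.3 and 1547 CPM at L3 (log2 change 2.50 ± 0.58, adjusted p = 0.0029). Butyrophilin *Btn1a1* was higher in each L3 library, at 3917, 2419 and 2832 CPM at P14.5 and 14151, 8394 and 7577 CPM at L3, but missed the test (log2 change 1.69 ± 0.78, adjusted p = 0.15). The droplet coat protein *Plin2* measured 1949, 1118 and 1553 CPM at P14.5 and 1227, 812 and 1183 CPM at L3, with overlapping groups (log2 change -0.51 ± 0.36, adjusted p = 0.39). The call of *Xdh* was lost without P14.5 replicate 3 or 5 or L3 replicate 4 or 6 (adjusted p up to 0.018) and that of *Muc1* without P14.5 replicate 3 or 5 or L3 replicate 4 or 6 (adjusted p up to 0.02), while those of *Cidea* and *Mfge8* held.

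Of 22 measured genes of fatty acid synthesis, 10 rose and 1 fell (*Acsl3*, -1.65, a call lost in edgeR and after median ratio scaling), with a median log2 change of 1.66. The same list had 3 genes higher, 2 lower and a median of 0.66 relative to all reads of the table. Reads on the 65 genes of the lipid lists (globule membrane and fatty acid, triglyceride and cholesterol synthesis) made up 2.09% ± 0.128 of the library at P14.5 and 3.25% ± 0.581 at L3 (SD, n = 3 each, exact permutation test, two-sided, p = 0.1, the smallest possible). The mitochondrial citrate carrier *Slc25a1*, which exports the carbon for lipid synthesis, measured 31.5, 30.0 and 32.9 CPM at P14.5 and 218, 100.1 and 345 CPM at L3 (log2 change 2.60 ± 0.27, adjusted p = 4.3e-08). The acetyl-CoA carboxylase *Acacb* measured 27.1, 15.8 and 25.2 CPM at P14.5 and 393, 129 and 561 CPM at L3 (log2 change 3.73 ± 0.53, adjusted p = 8.9e-06). Stearoyl-CoA desaturases, which introduce a double bond, both rose, *Scd1* at 3804, 2009.9 and 2456 CPM at P14.5 and 14835, 7757 and 16765 CPM at L3 (log2 change 2.23 ± 0.48, adjusted p = 0.0014) and *Scd2* at 32.5, 38.3 and 44.4 CPM at P14.5 and 479, 284 and 284 CPM at L3 (log2 change 3.12 ± 0.30, adjusted p = 7.8e-09). Of these 4 calls, that of *Scd1* was lost without P14.5 replicate 3 or L3 replicate 6 (adjusted p up to 0.012).

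*Olah*, the thioesterase that releases the medium-chain fatty acids typical of milk, measured 35.3, 27.6 and 34.9 CPM at P14.5 and 194, 94.8 and 685 CPM at L3 (log2 change 2.81 ± 0.63, adjusted p = 0.0021). It was highest in L3 replicate 6, and its call was lost at a pseudocount of 0.1 in place of 1 and without P14.5 replicate 3 or L3 replicate 6 (adjusted p up to 0.036). The core enzymes themselves were higher in every L3 library without passing the threshold in limma. ATP citrate lyase *Acly* measured 537, 305 and 449 CPM at P14.5 and 1396, 611 and 1417 CPM at L3 (log2 change 1.34 ± 0.37, adjusted p = 0.013), acetyl-CoA carboxylase *Acaca* 185, 198 and 193 CPM at P14.5 and 694, 303 and 595 CPM at L3 (log2 change 1.38 ± 0.38, adjusted p = 0.012) and fatty acid synthase *Fasn* 2430.0, 1328 and 2259 CPM at P14.5 and 8195, 2649.5 and 10083 CPM at L3 (log2 change 1.64 ± 0.48, adjusted p = 0.018). All 3 passed it in DESeq2 and without L3 replicate 5, *Acly* and *Acaca* also after median ratio scaling, and *Acaca* in edgeR. For the lipogenic transcription factor *Srebf1* the groups overlapped, at 281, 243 and 245 CPM at P14.5 and 969.9, 497 and 227 CPM at L3, with L3 replicate 6 below the P14.5 libraries (log2 change 0.90 ± 0.37, adjusted p = 0.1). It was called in DESeq2 and without L3 replicate 6.

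In triglyceride synthesis 1 of 11 genes rose, the acyltransferase *Agpat1*, at 65.7, 64.4 and 55.7 CPM at P14.5 and 188, 142 and 162 CPM at L3 (log2 change 1.39 ± 0.27, adjusted p = 0.00045). The list median was 1.08 (0.093 relative to all reads of the table, where none of its genes was called), and 7 of the 11 genes were higher in each L3 library than in each P14.5 library (13.1% of all genes were). *Gpam*, the first enzyme of the pathway, was higher in each L3 library (log2 change 1.08 ± 0.34, adjusted p = 0.027) and called in DESeq2, and *Dgat2* 5.87, 1.97 and 4.64 CPM at P14.5 and 5.77, 5.30 and 4.56 CPM at L3, with overlap (log2 change 0.35 ± 0.38, adjusted p = 0.62). Lipoprotein lipase *Lpl*, which frees fatty acids from blood lipoproteins, measured 759.7, 651 and 708 CPM at P14.5 and 1679, 790.3 and 3569 CPM at L3 (log2 change 1.25 ± 0.51, adjusted p = 0.099).

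Cholesterol synthesis had a median log2 change of 1.05, and 4 of 23 measured genes rose and none fell. *Idi1*, the isomerase whose promoter is shown above, measured 2.55, 3.54 and 2.45 CPM at P14.5 and 9.38, 21.1 and 11.2 CPM at L3 (log2 change 1.89 ± 0.45, adjusted p = 0.0035), and the acetyl-CoA acetyltransferase *Acat2* 10.1, 11.3 and 12.1 CPM at P14.5 and 32.6, 23.1 and 81.4 CPM at L3 (log2 change 1.74 ± 0.35, adjusted p = 0.00076). *Idi1* was highest in L3 replicate 5 and *Acat2* in L3 replicate 6. The call of *Idi1* was lost without P14.5 replicate 2 or 5 or L3 replicate 5 (adjusted p up to 0.03) and that of *Acat2* without L3 replicate 6 (adjusted p = 0.017). Squalene epoxidase *Sqle* measured 49.3, 63.4 and 44.4 CPM at P14.5 and 133, 116 and 63.8 CPM at L3 (log2 change 0.93 ± 0.39, adjusted p = 0.11). Relative to all reads of the table, the median of this list was 0.068, none of its genes rose and 2 fell.

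**Figure D2:**
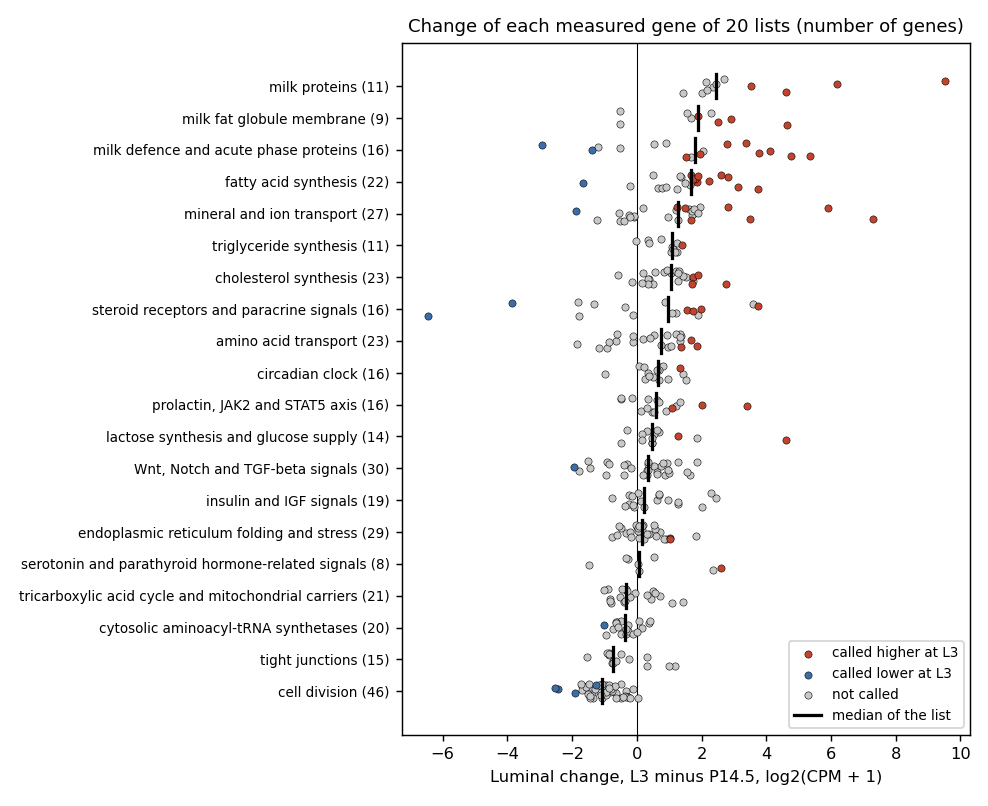
Luminal change from P14.5 to L3 on the log2(CPM + 1) scale (x axis) for every measured gene of 20 lists (y axis, number of genes in parentheses). Each point is a gene, red if called higher, blue if called lower and grey if not called, and the bar is the median of the list, from 2.44 for milk proteins to -1.06 for cell division.

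Lactose is made in the Golgi from glucose and galactose. Of 14 genes of lactose synthesis and glucose supply, 2 rose (*Lalba* above and *B4galt1*) and the median was 0.48 (-0.44 relative to all reads of the table). The galactosyltransferase *B4galt1* measured 672, 699.9 and 629 CPM at P14.5 and 2249, 1037 and 1791 CPM at L3 (log2 change 1.27 ± 0.28, adjusted p = 0.0016), and its call was lost without P14.5 replicate 5 or L3 replicate 4 (adjusted p up to 0.023) and when milk protein genes were left out of the scaling. The glucose transporter *Slc2a1* measured 1109, 383 and 541 CPM at P14.5 and 1231, 1164 and 498 CPM at L3, with overlapping groups (log2 change 0.54 ± 0.43, adjusted p = 0.45).

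Of 23 amino acid transporters, 3 rose (3.19% of all genes did) and none fell, with a median of 0.75. With milk protein genes left out of the scaling 1 rose and 1 fell, and relative to all reads of the table none rose and 5 fell (median 0.11, 25.1% of all genes fell). *Slc3a2*, the shared heavy chain of several transporters, measured 246, 169.6 and 176 CPM at P14.5 and 402, 441 and 719 CPM at L3 (log2 change 1.37 ± 0.30, adjusted p = 0.0017), and its light chain *Slc7a7* 16.5, 15.6 and 9.53 CPM at P14.5 and 62.4, 32.8 and 46.3 CPM at L3 (log2 change 1.68 ± 0.44, adjusted p = 0.0074). A further family member, *Slc7a4*, of whose exon bases 13.3% are shared with another gene, measured 10.6, 6.59 and 7.17 CPM at P14.5 and 37.5, 15.9 and 53.0 CPM at L3 (log2 change 1.87 ± 0.46, adjusted p = 0.0045). The calls of *Slc7a4* and *Slc7a7* were lost in edgeR and with milk protein genes left out of the scaling, and that of *Slc7a4* at a pseudocount of 0.1. With 1 library left out, *Slc3a2* lost its call without P14.5 replicate 3 or 5 or L3 replicate 6 (adjusted p up to 0.02), *Slc7a4* without P14.5 replicate 3 or 5 or L3 replicate 4 or 6 (adjusted p up to 0.041) and *Slc7a7* without P14.5 replicate 2, 3 or 5 or L3 replicate 4 or 6 (adjusted p up to 0.059). The leucine transporter *Slc7a5* was higher in each L3 library, at 399.8, 305 and 304 CPM at P14.5 and 845, 458 and 1206 CPM at L3 (log2 change 1.22 ± 0.33, adjusted p = 0.011), and was called in edgeR, in DESeq2, after median ratio scaling and without L3 replicate 5, and the neutral amino acid transporter *Slc38a2* was lower in each, at 618, 624 and 848 CPM at P14.5 and 475, 459 and 419.8 CPM at L3 (log2 change -0.61 ± 0.30, adjusted p = 0.19).

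Mineral transport held some of the steepest changes. Of 27 genes, 7 rose and 1 fell, with a median of 1.28 (relative to all reads of the table, 3 rose, 5 fell and the median was 0.27). The plasma membrane calcium pump *Atp2b2*, which exports calcium into milk, measured 4.56, 2.06 and 4.72 CPM at P14.5 and 383, 116 and 474 CPM at L3 (log2 change 5.91 ± 0.63, adjusted p = 6.2e-08), and the secretory pathway calcium pump *Atp2c2* 40.7, 27.3 and 30.4 CPM at P14.5 and 244, 181 and 288 CPM at L3 (log2 change 2.81 ± 0.61, adjusted p = 0.0015). The calcium store sensors *Stim1* (1.69) and *Stim2* (1.5) rose as well, the call of *Stim1* being lost with milk protein genes left out of the scaling. The phosphate transporter *Slc34a2* measured 154, 102 and 124 CPM at P14.5 and 2120.4, 679.9 and 1969 CPM at L3 (log2 change 3.49 ± 0.71, adjusted p = 0.00075). In none of *Atp2b2*, *Atp2c2* and *Slc34a2* did the groups overlap, and all 3 calls held whichever luminal library was left out, though that of *Atp2c2* was lost at a pseudocount of 0.1.

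*Slc39a8* and *Slc39a14*, metal transporters of the ZIP family, which bring zinc and manganese into the cytosol, rose too. *Slc39a8* measured 8.5, 0.983 and 3.04 CPM at P14.5 and 883, 438 and 774 CPM at L3 (log2 change 7.31 ± 0.71, adjusted p = 9e-09) and *Slc39a14* 595, 454 and 485 CPM at P14.5 and 1549.7, 932 and 1228 CPM at L3 (log2 change 1.25 ± 0.27, adjusted p = 0.0013), whose call was lost without P14.5 replicate 3 or L3 replicate 4 (adjusted p up to 0.015) and with milk protein genes left out of the scaling. The chloride channel *Cftr* fell by 1.89. The sodium, potassium and chloride cotransporter *Slc12a2* measured 293, 287 and 293 CPM at P14.5 and 258, 242 and 238 CPM at L3 (log2 change -0.24 ± 0.49, adjusted p = 0.82).

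Proteins of milk defence and the acute phase, which bind iron or bacterial products, had a median of 1.81, and 8 of 16 rose and 2 fell. Relative to all reads of the table, 6 rose, 2 fell and the median was 0.79. Lactoferrin *Ltf*, the iron-binding antibacterial protein of milk, measured 266, 173 and 161 CPM at P14.5 and 10406, 8649 and 5773 CPM at L3 (log2 change 5.36 ± 0.75, adjusted p = 7.1e-06). The siderophore-binding lipocalin *Lcn2* measured 4409, 1638 and 2212 CPM at P14.5 and 12222, 7847 and 9516 CPM at L3 (log2 change 1.94 ± 0.47, adjusted p = 0.0043), and its call was lost without P14.5 replicate 3 or 5 or L3 replicate 4 or 6 (adjusted p up to 0.04). Orosomucoid *Orm1* went from 1.08 CPM or less to 41.7, 11.1 and 88.7 CPM (log2 change 4.77 ± 0.60, adjusted p = 1.4e-06), and serum amyloid *Saa1* measured 20.3, 9.34 and 9.11 CPM at P14.5 and 173, 170.5 and 189.7 CPM at L3 (log2 change 3.77 ± 0.80, adjusted p = 0.0012) and *Saa2* 12.1, 2.36 and 4.64 CPM at P14.5 and 109, 105 and 113 CPM at L3 (log2 change 4.13 ± 0.81, adjusted p = 0.00052). Reads of *Saa1* and *Saa2*, and of *Orm1* and *Orm2*, are uncertain because the genes are close relatives. Lactoperoxidase *Lpo* (3.37), *Saa3* (2.79) and ceruloplasmin *Cp* (1.53) rose, and complement *C3* (-2.93) and the class I light chain *B2m* (-1.39) fell. The calls of *C3* and *B2m* were lost in edgeR and after median ratio scaling, and that of *Cp* with milk protein genes left out of the scaling. *Pigr*, which carries immunoglobulin A across the cell, measured 762, 442 and 544 CPM at P14.5 and 868, 719 and 1972 CPM at L3 and overlapped (log2 change 0.91 ± 0.79, adjusted p = 0.5).

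**Figure D3:**
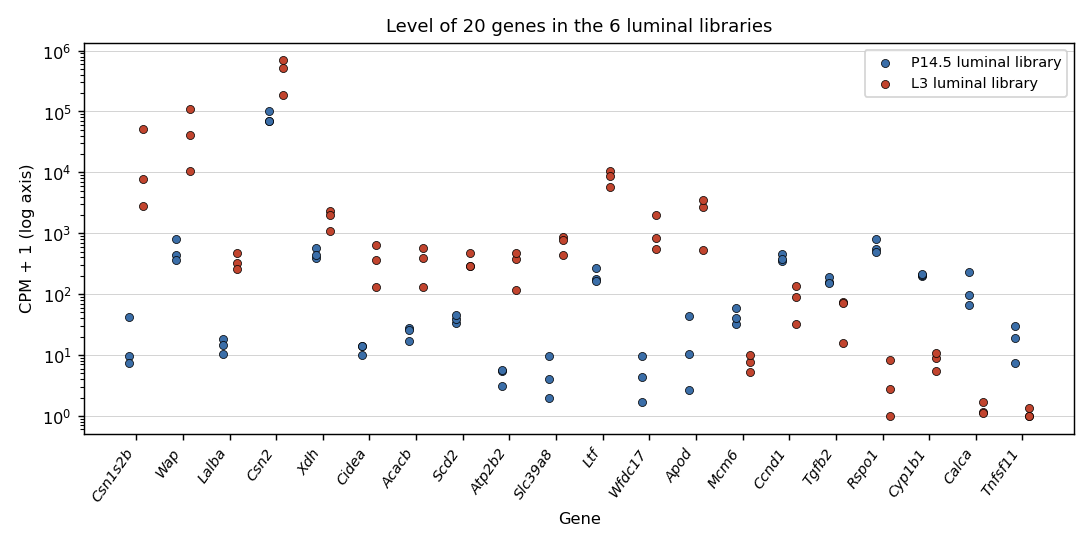
Level of 20 genes (x axis) in the 6 luminal libraries, as CPM + 1 on a log axis (y axis). Each point is a library, blue for P14.5 and red for L3. *Csn1s2b*, *Wap*, *Atp2b2*, *Slc39a8* and *Wfdc17* lie far higher at L3, and *Rspo1*, *Cyp1b1*, *Calca* and *Tnfsf11* far lower.

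Of 16 measured genes of the prolactin, JAK2 and STAT5 axis, 3 rose (3.19% of all genes did) and none fell, with a median of 0.58. With milk protein genes left out of the scaling 1 rose, and 1 rose and 1 fell relative to all reads of the table (median -0.41). The prolactin receptor *Prlr* measured 353, 249.9 and 269 CPM at P14.5 and 799, 1016 and 466 CPM at L3, higher in each L3 library but with a wide error (log2 change 1.33 ± 0.80, adjusted p = 0.3). The transcription factor *Stat5a* measured 93.6, 109 and 83.1 CPM at P14.5 and 115, 73.5 and 214 CPM at L3 (log2 change 0.36 ± 0.33, adjusted p = 0.54), and its targets *Cish* and *Socs2* measured 44.8, 33.3 and 30.8 CPM at P14.5 and 78.1, 44.7 and 50.1 CPM at L3 (log2 change 0.63 ± 0.35, adjusted p = 0.25) and 20.9, 14.4 and 24.0 CPM at P14.5 and 29.6, 39.7 and 12.3 CPM at L3 (log2 change 0.32 ± 0.42, adjusted p = 0.69). *Elf5*, the transcription factor of the alveolar lineage, measured 451, 452 and 415 CPM at P14.5 and 680.2, 360.4 and 899 CPM at L3 (log2 change 0.46 ± 0.52, adjusted p = 0.63). In these last 4 genes the groups overlapped.

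The signalling inhibitor *Socs3* rose, at 56.6, 21.0 and 18.1 CPM at P14.5 and 218, 189.8 and 683 CPM at L3 (log2 change 3.40 ± 0.40, adjusted p = 4.7e-07). The caveolar protein *Cav1*, known to restrain JAK2, measured 72.6, 6.68 and 18.2 CPM at P14.5 and 80.4, 129.9 and 64.2 CPM at L3 (log2 change 2.00 ± 0.53, adjusted p = 0.0085), but its groups overlapped and its call was lost in edgeR, in DESeq2, at a pseudocount of 5, with milk protein genes left out of the scaling and without P14.5 replicate 3 or 5 or L3 replicate 4, 5 or 6 (adjusted p up to 0.14). *Id2*, a factor of alveolar differentiation, measured 13.8, 14.9 and 14 CPM at P14.5 and 27.1, 24.0 and 47.7 CPM at L3 (log2 change 1.09 ± 0.29, adjusted p = 0.0096), and its call was lost with the sort of origin as a block, at pseudocounts of 0.1 and 5, with milk protein genes left out of the scaling and without P14.5 replicate 2, 3 or 5 or L3 replicate 4 or 6 (adjusted p up to 0.09, log2 change down to 0.80). Among insulin and IGF signals none of 19 genes passed the test (in edgeR 1 rose, and 4 fell relative to all reads of the table). The insulin receptor *Insr* was higher in each L3 library, at 115, 98.2 and 110.0 CPM at P14.5 and 249, 241 and 289 CPM at L3 (log2 change 1.26 ± 0.43, adjusted p = 0.045), as was *Akt1*, at 118, 78.6 and 90.3 CPM at P14.5 and 182, 143 and 120.3 CPM at L3 (log2 change 0.63 ± 0.23, adjusted p = 0.064), and the IGF-binding protein *Igfbp5* measured 3501, 2901 and 3502 CPM at P14.5 and 6061, 6056 and 1034 CPM at L3 (log2 change 0.031 ± 0.46, adjusted p = 0.98).

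Hormone-sensing luminal cells carry receptors for oestrogen and progesterone and signal to their neighbours through RANKL, Wnt4 and amphiregulin. Of 16 genes of this list, 4 rose and 2 fell (relative to all reads of the table, 1 rose and 5 fell). *Tnfsf11*, which encodes RANKL, fell to 1 read in all at L3, measuring 6.34, 18.0 and 28.4 CPM at P14.5 and 0, 0 and 0.351 CPM at L3, a ratio of 291 between P14.5 and L3 with a 95% counting interval of 52.0 to 11500 (log2 change -3.86 ± 0.69, adjusted p = 0.00019). This ratio and those with counting intervals below pool the reads of each group by depth, so they differ from ratios of mean CPM. The intervals cover counting error only and not the spread between libraries. Calcitonin *Calca*, a gene induced by progesterone in the gland, measured 97.0, 66.2 and 226 CPM at P14.5 and 0.180, 0.118 and 0.701 CPM at L3, with 4613 reads at P14.5 and 4 at L3 (ratio 557, 95% counting interval 217 to 2045, log2 change -6.45 ± 1.42, adjusted p = 0.0018). Its call was lost without P14.5 replicate 5 (adjusted p = 0.015).

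The progesterone receptor *Pgr* itself measured 17.8, 4.42 and 14.1 CPM at P14.5 and 1.44, 7.18 and 0.701 CPM at L3, lower on average but overlapping (log2 change -1.83 ± 0.69, adjusted p = 0.071). *Wnt4* measured 88.9, 51.2 and 82.3 CPM at P14.5 and 26.5, 50.9 and 5.96 CPM at L3 (log2 change -1.77 ± 0.71, adjusted p = 0.092) and amphiregulin *Areg* 35.2, 12.6 and 25.6 CPM at P14.5 and 6.67, 26.0 and 3.16 CPM at L3 (log2 change -1.31 ± 0.79, adjusted p = 0.3). Both were lowest in L3 replicate 6, while L3 replicate 5 lay inside the P14.5 range for *Areg* and just under it for *Wnt4*. In the other direction, the oestrogen receptor *Esr1* measured 21.2, 12.9 and 20.2 CPM at P14.5 and 64.2, 60.5 and 39.6 CPM at L3 (log2 change 1.54 ± 0.36, adjusted p = 0.0028) and *Ly6a* (Sca-1), a surface marker of ductal luminal cells, 30.4, 15.9 and 13.3 CPM at P14.5 and 289, 289 and 223 CPM at L3 (log2 change 3.76 ± 0.72, adjusted p = 0.00038). The transcription factor *Tbx3* rose by 1.75. The co-activator *Cited1* measured 16.7, 11.6 and 18.6 CPM at P14.5 and 481, 434 and 36.1 CPM at L3, with L3 replicate 6 far below the other 2 (log2 change 3.60 ± 1.03, adjusted p = 0.015). *Cited1* was called in edgeR, in DESeq2 and without L3 replicate 6. The call of *Esr1* was lost without P14.5 replicate 3 or L3 replicate 4 or 5 (adjusted p up to 0.028), whereas that of *Ly6a* held.

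*Pthlh*, which encodes the parathyroid hormone-related protein that mobilises calcium in lactation, measured 0.695, 0 and 0 CPM at P14.5 and 8.66, 4.47 and 5.96 CPM at L3 (log2 change 2.59 ± 0.36, adjusted p = 6.4e-06). It was the only one of 8 genes called. In basal cells *Pthlh* averaged 13.2 CPM at P14.5 and 37.2 CPM at L3 (log2 change 1.42 ± 0.40, adjusted p = 0.02, not called). The difference between the cell types was not called either (adjusted p = 0.26). *Tph1*, the enzyme of serotonin synthesis, measured 34.6, 10.1 and 23.2 CPM at P14.5 and 212, 249 and 22.8 CPM at L3, high in 2 of 3 L3 libraries (log2 change 2.35 ± 1.07, adjusted p = 0.15). Of 16 clock genes, *Bhlhe40* alone rose (3.19% of all genes did) and none fell. With milk protein genes left out of the scaling 1 rose and 1 fell, and relative to all reads of the table none rose and 1 fell. *Bhlhe40* measured 553, 477 and 365 CPM at P14.5 and 1224, 934 and 1378 CPM at L3 (log2 change 1.34 ± 0.31, adjusted p = 0.0025). Its call was lost without P14.5 replicate 5 or L3 replicate 4 or 6 (adjusted p up to 0.027). *Per1* measured 412, 377 and 361 CPM at P14.5 and 354, 428 and 425 CPM at L3 (log2 change 0.067 ± 0.25, adjusted p = 0.92) and *Dbp*, which shares 18.0% of its exon bases with another gene, 0.695, 0.491 and 1.10 CPM at P14.5 and 0.902, 3.30 and 2.45 CPM at L3 (log2 change 0.80 ± 0.52, adjusted p = 0.33).

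Of 29 genes of endoplasmic reticulum folding and stress, 2 rose (3.19% of all genes did) and none fell, and the median was 0.16. None rose and 1 fell with milk protein genes left out of the scaling (median -0.085), and none rose and 6 fell relative to all reads of the table (median -0.81). Those 2 were transcription factors of secretory capacity, *Xbp1* at 284, 327 and 255 CPM at P14.5 and 788, 498 and 513 CPM at L3 (log2 change 1.03 ± 0.24, adjusted p = 0.0034) and *Creb3l2* at 59.4, 84.2 and 68.9 CPM at P14.5 and 142, 153 and 135 CPM at L3 (log2 change 1.02 ± 0.22, adjusted p = 0.0014), and both calls were lost with milk protein genes left out of the scaling, that of *Creb3l2* also at a pseudocount of 5. That of *Xbp1* was also lost without P14.5 replicate 2 or 5 or L3 replicate 4 (adjusted p up to 0.042, log2 change down to 0.81) and that of *Creb3l2* without P14.5 replicate 2 or L3 replicate 5 (adjusted p up to 0.013, log2 change down to 0.90). The chaperone *Hspa5* measured 1219, 1363 and 1274 CPM at P14.5 and 1178, 1621 and 697 CPM at L3 (log2 change -0.22 ± 0.26, adjusted p = 0.65). The stress factors *Atf4* and *Ddit3* measured 295, 228 and 300.4 CPM at P14.5 and 356, 290.3 and 195 CPM at L3 (log2 change 0.000 ± 0.30, adjusted p = 1) and 9.04, 3.15 and 9.45 CPM at P14.5 and 5.23, 17.5 and 11.2 CPM at L3 (log2 change 0.57 ± 0.44, adjusted p = 0.45).

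The cytosolic aminoacyl-tRNA synthetases, which charge tRNAs for translation, had a median of -0.35, and 1 of 20 fell (15 relative to all reads of the table, and 2.97% and 25.1% of all genes), the lysyl enzyme *Kars*, at 131, 94.6 and 115 CPM at P14.5 and 68.4, 50.4 and 50.1 CPM at L3 (log2 change -1.0 ± 0.23, adjusted p = 0.0026). That call was lost in DESeq2, at a pseudocount of 5, after median ratio scaling and without P14.5 replicate 2 or 5 or L3 replicate 5 or 6 (adjusted p up to 0.021, log2 change up to -0.89). *Eprs* measured 318, 285 and 285 CPM at P14.5 and 219.7, 163 and 201 CPM at L3 (log2 change -0.61 ± 0.18, adjusted p = 0.018) and *Gars* 71.2, 75.3 and 59.4 CPM at P14.5 and 48.7, 59.3 and 39.6 CPM at L3 (log2 change -0.48 ± 0.24, adjusted p = 0.2). None of 21 genes of the tricarboxylic acid cycle and mitochondrial carriers was called in limma or edgeR, with a median of -0.33, but 4 fell with milk protein genes left out of the scaling (median -0.59) and 12 relative to all reads of the table (median -1.31). Citrate synthase *Cs* measured 516, 371 and 427 CPM at P14.5 and 746, 447 and 711 CPM at L3 (log2 change 0.51 ± 0.22, adjusted p = 0.11) and *Idh2* 68.6, 52.7 and 62.9 CPM at P14.5 and 47.6, 33.4 and 45.9 CPM at L3 (log2 change -0.53 ± 0.27, adjusted p = 0.21).

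Tight junctions close the paracellular route when milk secretion starts. None of their 15 measured genes was called in limma or edgeR (6 fell relative to all reads of the table), and 11 had a negative change, with a median of -0.72. The claudin *Cldn3* measured 221, 146 and 153 CPM at P14.5 and 109, 108 and 90.5 CPM at L3 (log2 change -0.73 ± 0.55, adjusted p = 0.42), occludin *Ocln* 75.7, 67.5 and 87.4 CPM at P14.5 and 45.3, 42.9 and 31.9 CPM at L3 (log2 change -0.93 ± 0.59, adjusted p = 0.33) and the scaffold *Tjp1* 514, 427 and 466 CPM at P14.5 and 269, 291 and 293 CPM at L3 (log2 change -0.72 ± 0.22, adjusted p = 0.026), each lower in every L3 library. *Cldn8* measured 44.0, 135 and 74.2 CPM at P14.5 and 229, 139 and 111 CPM at L3 (log2 change 0.99 ± 0.69, adjusted p = 0.38) and *Cldn4* 796, 408 and 607 CPM at P14.5 and 705, 639 and 88.4 CPM at L3, with L3 replicate 6 apart from the others (log2 change -0.76 ± 0.72, adjusted p = 0.55).

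Nearly all cell division genes had lower mean log values at L3. Of 46 measured genes, 45 had a negative change, 28 were lower in each L3 library than in each P14.5 library (16.9% of all genes were), 4 fell (2.97% of all genes did) and none rose, with a median of -1.06. The number that fell was 2 after median ratio scaling and in edgeR, 6 with milk protein genes left out of the scaling and 16 relative to all reads of the table. Of the 4, 3 were helicase subunits of DNA replication. *Mcm6*, whose promoter is shown above, measured 31.7, 59.1 and 39.4 CPM at P14.5 and 6.67, 9.06 and 4.21 CPM at L3 (log2 change -2.54 ± 0.59, adjusted p = 0.0029), *Mcm2* 30.2, 41.7 and 26.2 CPM at P14.5 and 8.30, 6.71 and 8.77 CPM at L3 (log2 change -1.90 ± 0.50, adjusted p = 0.0083) and *Mcm4* 45.7, 64.1 and 55.2 CPM at P14.5 and 26.5, 23.0 and 17.5 CPM at L3 (log2 change -1.27 ± 0.34, adjusted p = 0.0091). Cyclin D1 *Ccnd1*, which starts the cycle and shares 23.4% of its exon bases with another gene, measured 450.0, 354 and 382 CPM at P14.5 and 88.9, 134 and 31.9 CPM at L3 (log2 change -2.42 ± 0.52, adjusted p = 0.0013). The calls of *Mcm2* and *Mcm4* were lost in edgeR, at a pseudocount of 5, after median ratio scaling and when any 1 library was left out (adjusted p up to 0.047 and 0.049). That of *Mcm6* was lost without P14.5 replicate 3 or 5 or L3 replicate 4 or 6 (adjusted p up to 0.022) and that of *Ccnd1* without L3 replicate 6 (adjusted p = 0.021).

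The mitotic genes of the list did not pass the test. The topoisomerase *Top2a* measured 61.1, 67.2 and 55.9 CPM at P14.5 and 19.8, 44.5 and 16.8 CPM at L3 (log2 change -1.28 ± 0.74, adjusted p = 0.27), the mitotic kinase *Cdk1* 4.64, 6.29 and 4.64 CPM at P14.5 and 3.25, 1.88 and 3.86 CPM at L3 (log2 change -0.65 ± 0.70, adjusted p = 0.61) and cyclin B1 *Ccnb1* 1.47, 2.56 and 1.94 CPM at P14.5 and 0.541, 0.471 and 3.16 CPM at L3 (log2 change -0.48 ± 0.58, adjusted p = 0.66). The proliferation marker *Mki67* measured 152, 169 and 129 CPM at P14.5 and 77.9, 99.0 and 214 CPM at L3, with L3 replicate 6 above every P14.5 library (log2 change -0.33 ± 0.78, adjusted p = 0.85).

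R-spondin 1 *Rspo1*, which strengthens Wnt signals and is made by luminal cells, measured 814, 549 and 483 CPM at P14.5 and 7.40, 0 and 1.75 CPM at L3, the largest fall among the genes named by rule (log2 change -7.72 ± 0.89, adjusted p = 2.7e-07). *Lgr6*, a receptor for R-spondins, measured 95, 95.1 and 85.8 CPM at P14.5 and 6.85, 13.7 and 1.40 CPM at L3 (log2 change -3.83 ± 0.48, adjusted p = 1.4e-06). Of 30 genes of Wnt, Notch and TGF-beta signalling, 1 fell (2.97% of all genes did) and none rose, with a median of 0.34 (relative to all reads of the table, none rose, 7 fell and the median was -0.64). It was the growth inhibitor *Tgfb2*, at 159, 188 and 154 CPM at P14.5 and 73.8, 71.3 and 14.7 CPM at L3 (log2 change -1.93 ± 0.43, adjusted p = 0.0019), and its call was lost without P14.5 replicate 3 or L3 replicate 6 (adjusted p up to 0.043). *Tgfb3* measured 161, 246 and 181 CPM at P14.5 and 339, 203 and 214 CPM at L3 (log2 change 0.34 ± 0.40, adjusted p = 0.65), *Notch1* 181, 132 and 160.1 CPM at P14.5 and 214, 186 and 145 CPM at L3 (log2 change 0.20 ± 0.38, adjusted p = 0.81) and the Notch target *Hey1* 2.63, 1.57 and 1.27 CPM at P14.5 and 8.12, 11.1 and 3.86 CPM at L3 (log2 change 1.55 ± 0.61, adjusted p = 0.086).

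*Cyp1b1*, a cytochrome P450 that hydroxylates oestrogens, measured 199, 202 and 209.6 CPM at P14.5 and 7.94, 9.65 and 4.56 CPM at L3 (log2 change -4.66 ± 0.72, adjusted p = 2.9e-05). The calmodulin kinase *Camk2a* measured 28.5, 35.2 and 25.1 CPM at P14.5 and 0.180, 0.353 and 0 CPM at L3, 1024 reads against 4 (ratio 124, 95% counting interval 48.1 to 455), and *Rgs8*, a regulator of G-protein signals, 12.3, 42.2 and 13.8 CPM at P14.5 and 0.180, 0.118 and 0 CPM at L3, 751 reads against 2 (ratio 181, interval 50 to 1500). The matricellular protein *Ccn2* (CTGF) measured 311, 155 and 273 CPM at P14.5 and 28.5, 15.0 and 11.9 CPM at L3 (log2 change -3.70 ± 0.62, adjusted p = 7.8e-05). The gap junction protein *Gjb6* (connexin 30) measured 97.1, 126 and 70.7 CPM at P14.5 and 7.76, 2.59 and 8.77 CPM at L3 (log2 change -3.83 ± 0.61, adjusted p = 4.3e-05). The remaining 3 of the 12 largest falls were the secreted *C1qtnf1* (-4.53), *Emid1* (-4.22) and *Chadl* (-4.18, 19.5% of exon bases shared with another gene), all under 7 CPM in each L3 library and above 20 CPM in each P14.5 library. Each of these 10 calls, *Lgr6* and *Rspo1* included, held whichever luminal library was left out.

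Other large rises stood outside the lists. *Wfdc17*, a small secreted protein with the same domain as *Wap*, measured 8.73, 3.34 and 0.675 CPM at P14.5 and 1971, 846 and 555 CPM at L3 (log2 change 7.88 ± 0.78, adjusted p = 1.3e-08). The lipocalin *Apod* measured 42.9, 9.24 and 1.69 CPM at P14.5 and 2672, 3462 and 536 CPM at L3 (log2 change 7.32 ± 1.00, adjusted p = 4.5e-06). *Lao1*, the L-amino acid oxidase of mouse milk, measured 554, 274 and 344 CPM at P14.5 and 9400.2, 3375 and 16965 CPM at L3 (log2 change 4.44 ± 0.98, adjusted p = 0.0018), and its call was lost without P14.5 replicate 3 or 5 or L3 replicate 6 (adjusted p up to 0.015). The epithelial keratin *Krt6a* measured 2.32, 1.18 and 0.253 CPM at P14.5 and 58.4, 181 and 14.4 CPM at L3 (log2 change 4.72 ± 0.86, adjusted p = 0.00023). Beside it, *Krt79* measured 0.850, 9.93 and 0.675 CPM at P14.5 and 49.6, 145 and 40.0 CPM at L3 (log2 change 4.38 ± 0.83, adjusted p = 0.00037) and the desmosomal cadherin *Dsc3* 1.00, 6.39 and 0.591 CPM at P14.5 and 29.8, 79.5 and 5.96 CPM at L3 (log2 change 3.17 ± 0.82, adjusted p = 0.0073), whose groups overlapped and whose call was lost at pseudocounts of 0.1 and 5 and without P14.5 replicate 2 or 5 or L3 replicate 4 or 5 (adjusted p up to 0.074). *Krt6a*, *Krt79*, *Dsc3* and *Apod* were highest in L3 replicate 5, the library in which *Krt5* and *Trp63* were also highest (507 and 184 CPM) and milk protein reads lowest. Whether these belong together was not tested.

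The luminal calls were set beside those of basal cells, where a missing call does not by itself mean an unshared change. Between P14.5 and L3, 665 genes (3.89%) were called in basal cells, 376 higher and 289 lower, with 2 libraries at P14.5. Of the luminal calls, 44 of 545 higher genes (8.07%, and 11.7% of the basal calls) and 86 of 508 lower genes (16.9%, and 29.8%) were called in the same direction in basal cells. The difference between the changes of the 2 cell types was called for 120 genes (0.703%), 66 with the higher change in luminal cells and 54 in basal cells. With the sort as a replicate block these were 170 and 144. Without P14.5 basal replicate 5, the basal counts fell to 40 and 46.

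Milk protein reads in the basal libraries were 0.704% and 5.86% at P14.5 and 2.38%, 0.848% and 5.19% at L3. *Csn1s2b* (basal change 7.2) and *Wap* (4.94) were called in basal cells too, where *Wap* averaged 34.3 CPM at P14.5 and 1273 CPM at L3. The 10 luminal markers summed to 1237 and 3200 CPM in the basal libraries of P14.5 and to 1622, 1331 and 799 CPM in those of L3, and the part of luminal RNA in these basal values was not tested. *Rspo1* (basal change -4.24), *Chadl* (-3.54) and *Gjb6* (-3.21) fell in both cell types.

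The named genes with a called difference fell into a luminal and a basal set. *Slc39a8* (luminal 7.31, basal 0.78, difference 6.53, adjusted p = 0.0004) and *Atp2b2* (5.91, 0.98, difference 4.94, adjusted p = 0.0029) rose in luminal cells with no call in basal cells. *Scd2* (difference 2.98, adjusted p = 0.00022) and *B4galt1* (difference 1.92, adjusted p = 0.0074) did likewise. *Apod* (difference 9.34) and *Sfrp2*, a secreted Wnt antagonist (difference 8.04), went up in luminal libraries while their basal changes were -2.02 and -3.64, the latter called. *Sfrp2* measured 6.03, 1.47 and 1.52 CPM at P14.5 and 55.2, 59.5 and 119.6 CPM at L3 in luminal cells. *Krt6a*, *Krt79* and *Dsc3* rose in luminal cells, with basal changes of -1.66, -1.68 and -2.45, none of them called. Fibroblast markers, none of the 10 at 0 in any basal library, were led there by *Col3a1*, *Col1a1*, *Dcn* or *Col6a3*. They summed to 12599 and 6407 CPM in the basal libraries of P14.5 and to 948, 1687 and 6912 CPM in those of L3. Their median basal change was -2.40, and their part in the basal values of *Apod* and *Sfrp2* was not tested. The lineage gate, per the study's methods, removed cells stained for CD11b, CD45, Ly-6G/Ly-6C, Ter-119, CD31 and CD140a, the last with an antibody listed against the human protein. CD140a is encoded by *Pdgfra*, 1 of the 10 fibroblast markers, which measured 214 and 136 CPM in the basal libraries of P14.5 and 1.84, 0.254 and 75.8 CPM in those of L3 (log2 change -4.72).

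In the opposite set the basal change lay above the luminal change. *Lep*, which encodes the adipocyte hormone leptin, averaged 0.867 CPM at P14.5 and 195 CPM at L3 in basal cells (log2 change 6.71), and in luminal cells it measured 0.386, 0 and 0 CPM at P14.5 and 0.721, 0.589 and 1.40 CPM at L3, higher in each L3 library but not called (difference -5.96). The troponin *Tnni2*, the actin-capping *Tmod1*, *Itprid1* and *Chn1* also rose in basal cells (basal changes 5.68, 3.04, 2.79 and 1.94), and *Chn1* had a called luminal change of -1.80, lost at a pseudocount of 5 and without L3 replicate 4 (adjusted p = 0.011). *Tnni2* was at 0 in both P14.5 basal libraries and at 96.0, 66.6 and 19.5 CPM at L3, so its fitted change depends on the value added before the logarithm. *Tmod1* had 63 reads at P14.5 and 4 at L3 in the luminal libraries. Of its exon bases, 32.6% are shared with another gene. *Ccn2* fell in luminal cells with a basal change of 0.65 (difference -4.35), and *Rgs8* had a called luminal change of -4.22 and an uncalled basal change of -1.42 (difference -2.80). Its basal level was already 1.86 and 1.65 CPM at P14.5 and 0, 0 and 0.0928 CPM at L3, so on the log2(CPM + 1) scale its basal change could hardly be larger, and the called difference cannot be told apart from the low basal start. The 6 measured adipocyte markers summed to 288 and 108 CPM in the basal libraries of P14.5 and to 668, 661 and 1129 CPM in those of L3. *Lep* is itself 1 of these markers, so its own rise is part of these sums. The most abundant marker, *Fabp4*, measured 251 and 92.5 CPM at P14.5 and 276, 322 and 687 CPM at L3. The part of adipocyte RNA in the *Lep* values was not tested.

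**Figure D4:**
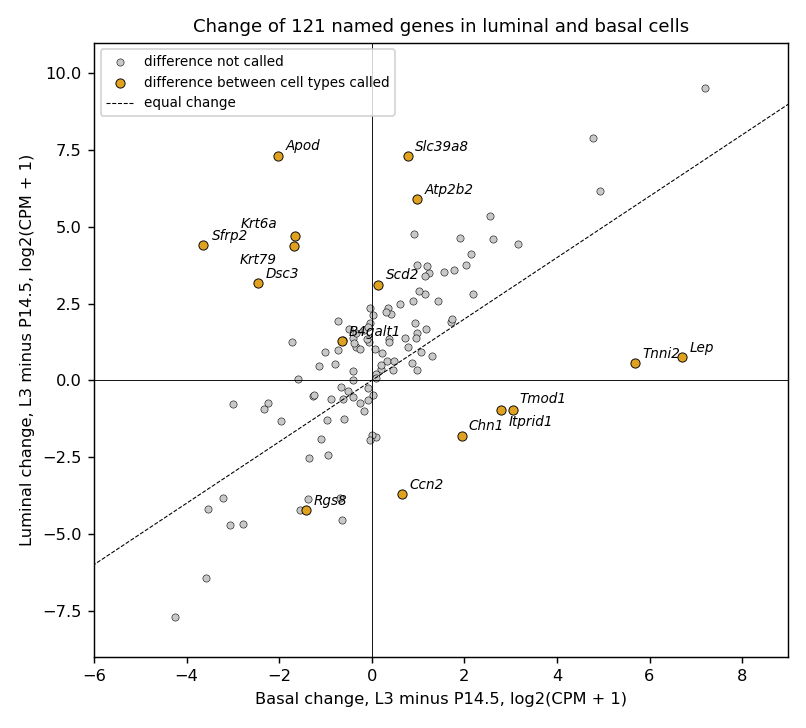
Change from P14.5 to L3 of 121 named genes in basal (x axis) and luminal cells (y axis), both on the log2(CPM + 1) scale. Orange points with names have a called difference between the cell types, grey points do not, and the dashed line marks equal change. *Slc39a8*, *Atp2b2* and *Apod* lie high above the line and *Lep* and *Tnni2* far below it.

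Set against the other luminal libraries, the medians of 10 of the 20 lists were highest at L3, among them milk proteins, milk fat globule membrane and the 3 lists of lipid synthesis, while those of endoplasmic reticulum folding (0.30 against 0.16 at L3) and the prolactin axis (0.82 against 0.58) were highest at 2 days of involution (Id2). Relative to P14.5, the median of the milk protein list was -3.56 at 10 weeks of age in mice that had not been pregnant (W10), -1.75 at 4 months (M4), -2.74 at pregnancy day 3.5 (P3.5), 2.44 at L3, 1.02 at lactation day 10 (L10), 1.34 at Id2 and -1.65 at 4 weeks of involution (Iw4). Fatty acid synthesis peaked at L3 (1.66) and stood at 0.50 at L10 and 0.080 at Id2. Cell division was highest at P3.5 (1.65), and L3 (-1.06) and Id2 (-1.18) were lowest. These medians were not tested.

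Single genes followed different courses over the later time points, which were not tested. *Slc39a8* averaged 698 ± 232 CPM at L3, 839 ± 752 at L10 and 1195 ± 606 at Id2, and 4.17 CPM or less at each of the other 5 time points. *Atp2b2* averaged 324 ± 186 CPM at L3, 127 ± 111 at L10 and 13.9 ± 2.92 at Id2. *Wap* averaged 53810 ± 50831 CPM at L3, 10042 ± 6640 at L10 and 27492 ± 15031 at Id2, so its L3, L10 and Id2 libraries overlapped. *Rspo1* was at 3.05 ± 3.86 CPM at L3 and 1.44 ± 0.624 at Id2, and at 150 ± 123 CPM at L10, all of whose libraries (21.0 to 266 CPM) were above those of L3. *Calca* was at 0.333 ± 0.320 CPM at L3, 274 ± 238 at L10 and 1.94 ± 1.88 at Id2 (SD, n = 3 each). The L10 libraries of *Calca* (41.5 to 517 CPM) lay above those of L3 as well. The luminal L10 and Id2 libraries held 19.7% to 35.3% of reads on milk protein genes.

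**Figure D5:**
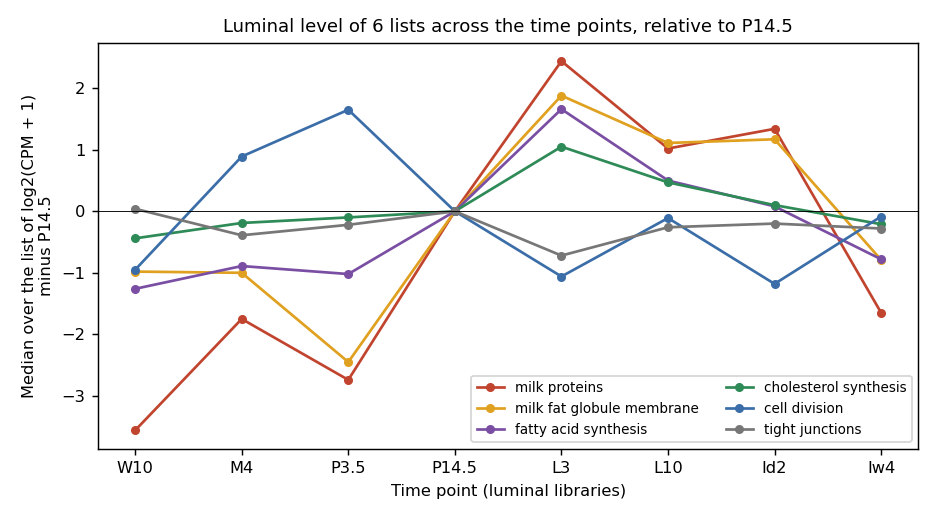
Median over each of 6 lists of the log2(CPM + 1) level in luminal libraries minus that at P14.5 (y axis) at 8 time points (x axis). Milk proteins, milk fat globule membrane, fatty acid and cholesterol synthesis peak at L3 (2.44, 1.88, 1.66 and 1.05), where cell division stands at -1.06.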

How the data were processed

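RNA of sorted luminal and basal mammary cells of FVB/N mice was amplified from small inputs and sequenced, and 46 libraries with values were read (24 luminal, 22 basal) from 47 labelled samples. The authors trimmed the reads, used GSNAP to place them on mm9, obtained gene counts with HTSeq, removed weakly expressed genes and deposited a normalized signal, which is read counts divided by an effective library size in edgeR and scaled as CPM. Whether counting used the strand is not given in the sources used here, and reads of overlapping genes cannot be assigned. Every deposited value was a whole number of reads to within 0.1 read (100%), so read counts were recovered. All 17078 genes were tested (16897 IDs had a symbol).

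Changes were fitted with limma 3.58.1 (R 4.3.3) with a mean-variance trend on log2(CPM + 1), as 16 groups of time point and cell type over all 46 libraries, with Benjamini-Hochberg adjustment over all genes. A gene was called at a fold of at least 2 and an FDR under 0.01. Alternatives were other pseudocounts, scalings and filters, edgeR 4.0.16 and DESeq2 1.42.0 on the recovered reads, only the compared libraries in the fit, each library left out in turn, and the sort as a block. 2 further alternatives were added after seeing the data, namely only luminal libraries in the fit and values relative to all reads of the table. Shares of reads were compared by exact permutation (SciPy 1.17.1). The luminal and basal libraries of a sort come from the same pooled glands. Their deviations from the group means correlated positively in 21 of 22 sorts (median 0.31, range -0.034 to 0.48). P14.5 replicate numbers differ from those of L3 except for 5, which marks separate sorts.

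Named genes were the key members of 20 pathway lists, up to 4 called members of each list with the largest change and its most abundant member, the 12 largest rises and falls without overlap and with a mean of at least 5 CPM in the higher group, and the 6 largest called differences between cell types each way. Members of lists mentioned beyond these were named after their values were seen. The members and lists were chosen with earlier results of these data known. Genes without a row in the table were not analysed here, and some named genes are not reported here and enter only the counts and medians of lists and tests. A 3-read level was taken as the detection floor.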

Additional observations from a re-analysis of the deposited data

Results flagged for a closer look

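The change from P14.5 to L3 differed between luminal and basal cells for 16 named genes, as tested by the interaction of cell type and time point in limma (adjusted over all 17078 genes). The 6 largest called differences each way were named for that reason, so this count is largely set by the naming rule. Over all genes tested, the difference was called for 120 (0.703%). All values are the luminal change minus the basal change on the log2(CPM + 1) scale. They were positive for *Apod* (9.34), *Sfrp2* (8.04), *Slc39a8* (6.53), *Krt6a* (6.38), *Krt79* (6.05), *Dsc3* (5.62), *Atp2b2* (4.94), *Scd2* (2.98) and *B4galt1* (1.92). They were negative for *Lep* (-5.96), *Tnni2* (-5.12), *Ccn2* (-4.35), *Tmod1* (-4.02), *Itprid1* (-3.74), *Chn1* (-3.74) and *Rgs8* (-2.80). For *Rgs8* the basal level averaged 1.75 CPM at P14.5 and 0.0309 CPM at L3, so on this scale the difference cannot be told apart from the low basal start. *Sfrp2* was called higher at L3 in luminal cells and lower in basal cells, and *Chn1* the reverse. The basal side of each value rests on 2 libraries at P14.5, which for *Apod* measured 1015 and 150.3 CPM and for *Krt6a* 257 and 31.9 CPM.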

How the results depend on the processing

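Many of the 65 called named genes were picked for large called changes, so their counts do not stand for all calls. Of these 65 genes, 37 kept the call whichever luminal library was left out and 28 lost it without at least 1. Under 7 other settings (both pseudocounts, median ratio scaling, milk protein genes left out, edgeR, DESeq2 and the block), 15 lost it in at least 1. With only the compared libraries in the fit 61 lost it, all but *Lalba*, *Ltf*, *Camk2a* and *Cyp1b1*, and 21 lost it relative to all reads of the table. Of the named genes not called, 10 were called in DESeq2 and 11 were called lower relative to all reads of the table. The amplification batch and lane of the compared groups cannot be told apart from the time point. Depth limits *Calca*, *Tnfsf11*, *Camk2a*, *Rgs8* and *Tmod1* at L3, with 4 reads or fewer in all 3 luminal libraries together.

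The luminal counts (545 higher, 508 lower) became 989 higher in DESeq2, 972 and 790 at an FDR of 0.05, 141 and 4285 relative to all reads of the table, and 4 and 2 with only the compared libraries in the fit. Lower genes numbered 325 at a pseudocount of 5 and 1007 with milk protein genes left out. With all 24 luminal libraries and no basal ones in the fit, 506 genes were called higher and 477 lower. In that fit 3 named genes lost their call and 2 gained one. Leaving out 1 library gave 295 to 518 higher and 272 to 523 lower genes. Without P14.5 luminal replicate 5, 294 of the 545 higher calls and 266 of the 508 lower calls were kept. The basal counts (376 higher, 289 lower) became 834 and 666 at an FDR of 0.05, 165 and 438 relative to all reads of the table, 183 and 551 with milk protein genes left out, 219 higher at a pseudocount of 0.1 and 119 higher in edgeR. With only the compared libraries in the fit, limma called 0 basal genes in either direction (3127 at an unadjusted p under 0.05), while edgeR called 119 and 253 and DESeq2 360 and 399 over all libraries. Leaving out 1 library gave 40 to 362 higher and 46 to 264 lower basal genes, the fewest without P14.5 basal replicate 5.

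The called differences between cell types (66 higher, 54 lower in luminal cells) became 20 and 29 at a pseudocount of 0.1, 38 and 32 at a mean of at least 5 CPM, 28 and 15 in edgeR, 288 and 273 at an FDR of 0.05, 39 and 359 relative to all reads of the table, and 4 and 3 with only the compared libraries. They were 203 higher in DESeq2 and 87 lower at a pseudocount of 5. Leaving out 1 library gave 17 to 92 higher and 23 to 93 lower. With the sort as a replicate block, 170 and 144 differences were called, and the luminal counts were 553 and 515. Among named genes the block ended the call of *Id2*, and 3 genes not called before were called. The cause of these shifts was not tested.

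Changes of sign concerned genes that were not called. Relative to all reads of the table, where the median gene shifts by -0.61, the luminal change became negative for *Slc2a1* (-0.47), *Srebf1* (-0.11), *Dgat2* (-0.42), *Sqle* (-0.063), *Stat5a* (-0.64), *Cish* (-0.36), *Socs2* (-0.61), *Elf5* (-0.55), *Atf4* (-1.01), *Ddit3* (-0.28), *Cs* (-0.50), *Cldn8* (-0.012), *Pigr* (-0.10), *Notch1* (-0.81), *Akt1* (-0.37), *Per1* (-0.94), *Tgfb3* (-0.66) and *Igfbp5* (-0.98). With milk protein genes left out it did for *Atf4* (-0.25), *Notch1* (-0.056), *Per1* (-0.19) and *Igfbp5* (-0.22), and at a pseudocount of 0.1 for *Atf4* (-0.000). With 1 library left out, the sign changed for *Atf4* (-0.19 to 0.24), *Cldn4* (-1.28 to 0.21), *Dgat2* (-0.009 to 0.60), *Hspa5* (-0.50 to 0.11), *Igfbp5* (-0.39 to 0.88), *Socs2* (-0.016 to 0.79), *Stat5a* (-0.041 to 0.72) and *Tnni2* (-0.062 to 0.89), with 1 end of each range except that of *Dgat2* reached without L3 replicate 5 or 6.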

Other observations

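Further gene groups were listed after their values were seen, so their counts are descriptions with no test, to be read beside the 3.19% of genes called higher and 2.97% called lower. Of 34 measured interferon-induced genes, 7 fell in luminal cells (*Ifit1* -3.38, *Ubd* -3.21, *Gbp7* -2.48, *Ifit2* -2.42, *Samd9l* -1.85, *Psmb8* -1.64 and *Tap1* -1.64 on the log2 scale), 1 rose (*Isg20*, 3.18) and the median was -0.74. These encode antiviral effectors and parts of antigen processing. None of them was called in basal cells. Of 25 chemokine ligands, which attract leukocytes, 5 rose (*Cxcl1* 4.41, *Cxcl2* 4.31, *Cxcl17* 4.13, *Cxcl14* 3.36 and *Cxcl3* 2.39) and 1 fell (*Ccl5*, -2.30). The calls of *Ubd*, *Cxcl3* and *Ccl5* were lost in edgeR.

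Of 22 immediate early and heat shock genes, which respond within a short time to handling or stress of cells, 4 rose (*Hspa1a* 2.59, *Fos* 1.99, *Dusp1* 1.65 and *Jun* 1.5). Their median change was 0.68 in luminal and 0.65 in basal cells, where none of them was called. Of 16 keratins 5 rose (*Krt6a* 4.72, *Krt5* 4.41, *Krt79* 4.38, *Krt15* 2.37 and *Krt10* 2.29). With milk protein genes left out of the scaling the calls of *Fos*, *Krt15* and *Krt10* were lost. Of 85 ribosomal protein genes 79 had a negative luminal change and 8 fell, with a median of -0.68 in luminal and -0.70 in basal cells. Their share of luminal reads was 1.51%, 1.16% and 1.41% at P14.5 and 0.413%, 0.585% and 0.266% at L3. A share of all reads also depends on milk protein reads, which averaged 19.4% at P14.5 and 50.2% at L3. With milk protein genes left out of the scaling, the median luminal change of the ribosomal protein genes was -0.94. The cause of their lower share was not tested.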
